A study of Mus musculus with 5 samples.

Results

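The genes described here are 10 markers of astrocytes, Gfap, Vim, Aqp4, Aldoc, Gja1, Gjb6, S100b, Slc1a2, Slc1a3 and Sox9, followed over 5 Affymetrix arrays of the mouse ventromedial hypothalamus (VMH). They were chosen by name, and every probe set annotated to them alone was used. The array carried 24 such probe sets among 22690, at least 1 for each of the 10 genes. A probe set was kept when its mean signal over the 5 arrays lay in the top 50%, which retained 22 of the 24 and all 10 genes, among 6665 genes kept in all. The probe sets not kept were the dimmer ones of Aqp4 and Sox9.

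All mice were C57Bl/6. Animals anesthetized with isoflurane received a bilateral electroconvulsive shock (ECS) through ear clip electrodes (25 mA, pulses of 0.5 msec at 100 per sec for 1 sec), either 1 time or 7 times. Brains were collected either 2 h or 6 h later. The sham group had the same handling without current and was collected at 2 h, so the sham is matched in time to the 2 h groups and not to the 6 h groups. The nucleus was cut from frozen, stained sections by laser microdissection, RNA of 2 or 3 animals was pooled, and the amplified cDNA went onto 1 array per group. The design text speaks of a second round with other animals, which was not analysed here. The sources used here give neither the age and sex of the mice nor the spacing of the 7 shocks. Titles and tissue source name the VMH, while the description field of the same samples names the PVN. The VMH factor Nr5a1 gave deposited signals of 78.5 (sham), 50.4 (1 shock, 2 h), 173.3 (1 shock, 6 h), 145.6 (7 shocks, 2 h) and 152.1 (7 shocks, 6 h).

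Astrocytes take up the glutamate and potassium that firing neurons release, pass ions and metabolites to one another through gap junctions, and wrap blood vessels with endfeet rich in water channels. When neural tissue is injured or strongly driven, they can become reactive, a state classically recognised by more of the intermediate filament proteins GFAP and vimentin. In the mediobasal hypothalamus they neighbour tanycytes, vimentin-rich cells that line the third ventricle. In dissected tissue, fewer cells of a type and less RNA per cell cannot be told apart.

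Each group had 1 array, so replicate error could not be measured, nothing could be tested for significance, and precision is limited by the number of arrays. Differences are therefore described by size. A difference below is a log2 difference between arrays after subtracting the median log2 signal of the kept probe sets on each array, with a pseudocount of 1.2 added to every signal. A difference of 1 or more in size, which is 2-fold, is called past 2-fold. The arrays were not equally bright. The median deposited signal was 20.3 to 23.4 on the sham array and the single-shock 2 h array and 26.9 to 31.6 on the other 3, and the centring removed shifts against sham of -0.13, 0.40, 0.51 and 0.49 (1 shock at 2 h and 6 h, then 7 shocks at 2 h and 6 h). Each gene is represented by its brightest kept probe set, and its other kept probe sets are quoted as a check within the array. A signal is compared between arrays only, never between probe sets.

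Few of the 10 astrocyte genes differed from the sham array by 2-fold, and their share was near or below that of all kept genes in each comparison. At 2 h after 1 shock, 0 of 10 were past 2-fold, against 13.1% of all kept genes, and the median difference was 0.12. At 6 h after 1 shock, 1 of 10 was past 2-fold, against 15.0% of all kept genes, with a median of -0.04. At 2 h after 7 shocks the count was 1 of 10 against 14.0%, with a median of 0.05, and at 6 h after 7 shocks it was 1 of 10 against 14.6%, with a median of 0.11. The single gene past 2-fold was Vim in each of these 3 comparisons, always higher. Without Vim the median of the other 9 genes was 0.04, -0.10, 0.01 and -0.03 in the same order. The medians over all kept genes were 0.01, 0.07, 0.01 and 0.02. The 4 comparisons share the sham array, so they are not independent of one another. The number of the 10 genes above sham was 6, 5, 6 and 5. Without rescaling of the arrays it was 5, 9, 8 and 9, when the median of all genes moved to -0.12, 0.46, 0.51 and 0.50. The share of all genes past 2-fold was smaller among bright probe sets. With only the top 25% by mean signal it was 5.42%, 7.39%, 6.56% and 7.39%. The astrocyte genes past 2-fold were then 0, 1, 0 and 1 of the 9 that remained.

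**Figure D1:**
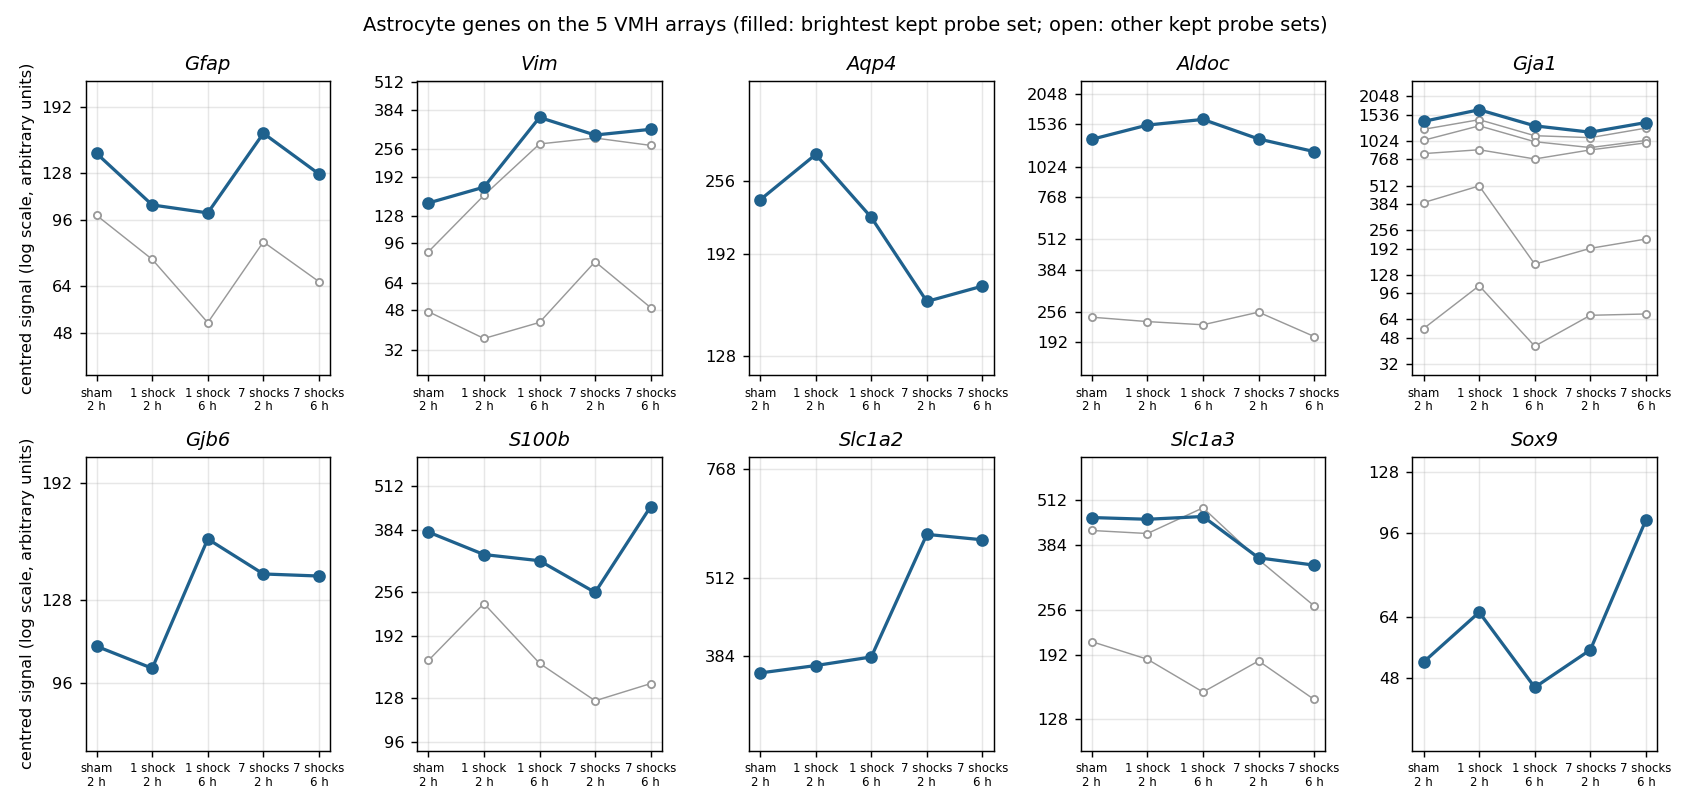
Centred signal of the 10 astrocyte genes on each of the 5 arrays (1 array per group, no error bars), on a log scale in arbitrary units. Filled points are the brightest kept probe set and open points the other kept probe sets, with lines joining the readings of 1 probe set. The brightest Vim probe set reads 146 on the sham array and 354 on the single-shock 6 h array, and Slc1a2 reads 602 and 590 on the 7-shock arrays against 360 to 382 on the other 3.

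The spread of each gene over the 5 arrays was mostly small. The gap between the highest and the lowest array had a median of 0.72 log2 units over the 10 genes, against 0.99 over all kept genes, and 8 of the 10 lay below that value. It ran from 0.44 for Aldoc and Slc1a3 to 1.16 for Sox9 and 1.28 for Vim, the 2 genes above the median of all genes. Bright genes and dim genes are both in the comparison set, and the part of brightness in this gap was not tested.

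Vim encodes vimentin, the intermediate filament protein of immature and reactive astrocytes, and also of tanycytes and endothelial cells. Its brightest probe set (1438118_x_at) had deposited signals of 121.2 on the sham array, 131.0 at 2 h after 1 shock, 389.7 at 6 h after 1 shock, 351.1 at 2 h after 7 shocks and 367.2 at 6 h after 7 shocks. Sham and the single-shock 2 h array were low, and the other 3 arrays were high and close to one another. After centring, the differences from sham were 0.24, 1.28, 1.02 and 1.10. They stood above 67.5%, 96.1%, 93.3% and 94.3% of all kept genes. Between the 5th and 95th percentile of all genes, differences ran from -1.23 to 1.17 in the 6 h comparison after 1 shock, so only that Vim difference lay outside this range in its comparison.

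The probe sets of Vim did not all show this pattern. Probe set 1456292_a_at, designed from the same sequence record as the brightest one, read 72.8, 120.0, 295.8, 340.8 and 310.6 in the same order of arrays, with differences of 0.84, 1.61, 1.70 and 1.59. Probe set 1450641_at, designed from another record and the dimmest of the 3, read 38.6, 26.3, 45.6, 93.8 and 56.9. Its differences were -0.40, -0.16, 0.75 and 0.06, so it was past 2-fold in none of the comparisons with sham, and its highest array was 7 shocks at 2 h. With this probe set alone, the one Vim probe set without a suffix for shared or alternative transcripts, Vim at 6 h after 1 shock was at -0.15.

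The higher Vim readings fell on the 3 brightest arrays. The 3′ to 5′ signal ratio of the Gapdh controls, which is larger where RNA is degraded or amplified from one end, was 5.37 to 5.88 on those arrays and 6.67 and 8.77 on sham and the single-shock 2 h array. The same ratio of the actin controls did not divide the arrays in this way, at 0.799 on sham, 0.889 and 1.10 after 1 shock, and 0.783 and 0.593 after 7 shocks. The part of array brightness and of these ratios in the Vim difference was not tested. Without rescaling the Vim differences were 0.11, 1.68, 1.53 and 1.59. Over the 10 settings tried, Vim was past 2-fold in 8 at 6 h after 1 shock, in 6 at 2 h after 7 shocks and in 8 at 6 h after 7 shocks.

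Markers of other vimentin-rich cells gave the following values. Of 8 endothelial markers, 7 had a probe set and 3 were kept, and the summed centred signal of the 7 was 177 on sham, 127 at 2 h and 281 at 6 h after 1 shock, and 132 and 123 after 7 shocks. The sum was highest on the single-shock 6 h array and below sham on both 7-shock arrays, where Vim was also high. It was carried there by the angiopoietin receptor gene Tek, which read 102.3 in deposited signal on that array and 7.2 to 25.6 on the other 4, and by the tight junction gene Cldn5, which read 105.4 against 28.7 to 48.8. Tek was kept only through that array, since its other readings lie below the limit of 28.4 set for the mean signal. The third kept gene, the transporter gene Slco1a4, differed from sham by -0.32 on that array, and the dim growth factor receptor genes Kdr and Flt1 read 5.5 and 25.2 there against 10.8 and 29.5 on sham. The endothelial adhesion gene Pecam1 read 0.6 to 18.0. Of 10 ependymal and tanycyte markers, 6 had a probe set and 2 were kept, and the summed centred signal of the 6 was 201, 341, 170, 195 and 177. The kept gene Dio2 read 108.8 in deposited signal on sham, 162.0 and 55.4 after 1 shock, and 136.4 and 147.2 after 7 shocks. Its differences from sham were 0.70, -1.35, -0.18 and -0.05. The other kept gene, Rarres2, read 44.5 to 84.7, with differences of 0.33, 0.52, 0.22 and -0.35. The tanycyte factor Rax read 1.2 to 8.8 in deposited signal on all 5 arrays, and the ciliary factor Foxj1 read 2.3 to 10.9. Of 7 pericyte and smooth muscle markers, all had a probe set and 4 were kept, with sums of 496, 524, 475, 462 and 626. The kept gene Vtn differed from sham by 1.69 and 1.83 at 2 h and 6 h after 7 shocks, with another probe set at 0.87 and 0.43. The other kept genes, Acta2, Pdgfrb and Rgs5, differed by -0.10, -0.61 and -0.43 at 2 h and by -0.29, 0.15 and 0.17 at 6 h. At 6 h after 1 shock, Vtn was at -0.27, Acta2 at -0.94, Pdgfrb at 0.30 and Rgs5 at 0.20. The part of these cells in the Vim difference was not tested.

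Gfap encodes glial fibrillary acidic protein, the classic filament protein of mature astrocytes. Its brightest probe set (1426509_s_at) read 119.6 in deposited signal on sham, 79.0 and 109.6 at 2 h and 6 h after 1 shock, and 192.9 and 148.7 at 2 h and 6 h after 7 shocks. After centring it differed from sham by -0.46 and -0.52 after 1 shock and by 0.18 and -0.17 after 7 shocks. The other probe set (1426508_at) read 81.6, 56.4, 55.2, 98.8 and 76.0 and differed by -0.39, -0.95, -0.23 and -0.59. Both probe sets were thus lowest on the single-shock 6 h array after centring and below sham on both single-shock arrays, with no difference past 2-fold. The single-shock differences stayed below 0 in every processing tried, from -0.59 to -0.38 at 2 h and from -0.94 to -0.12 at 6 h, whereas the sign after 7 shocks changed with the processing. Set against the single-shock array of the same time, Gfap on the 7-shock array was higher by 0.64 at 2 h and by 0.35 at 6 h, and its other probe set by 0.16 and 0.36. Gfap and Vim, the filament genes read together as signs of reactivity, therefore differed in opposite directions from sham at 6 h after 1 shock on their brightest probe sets.

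**Figure D2:**
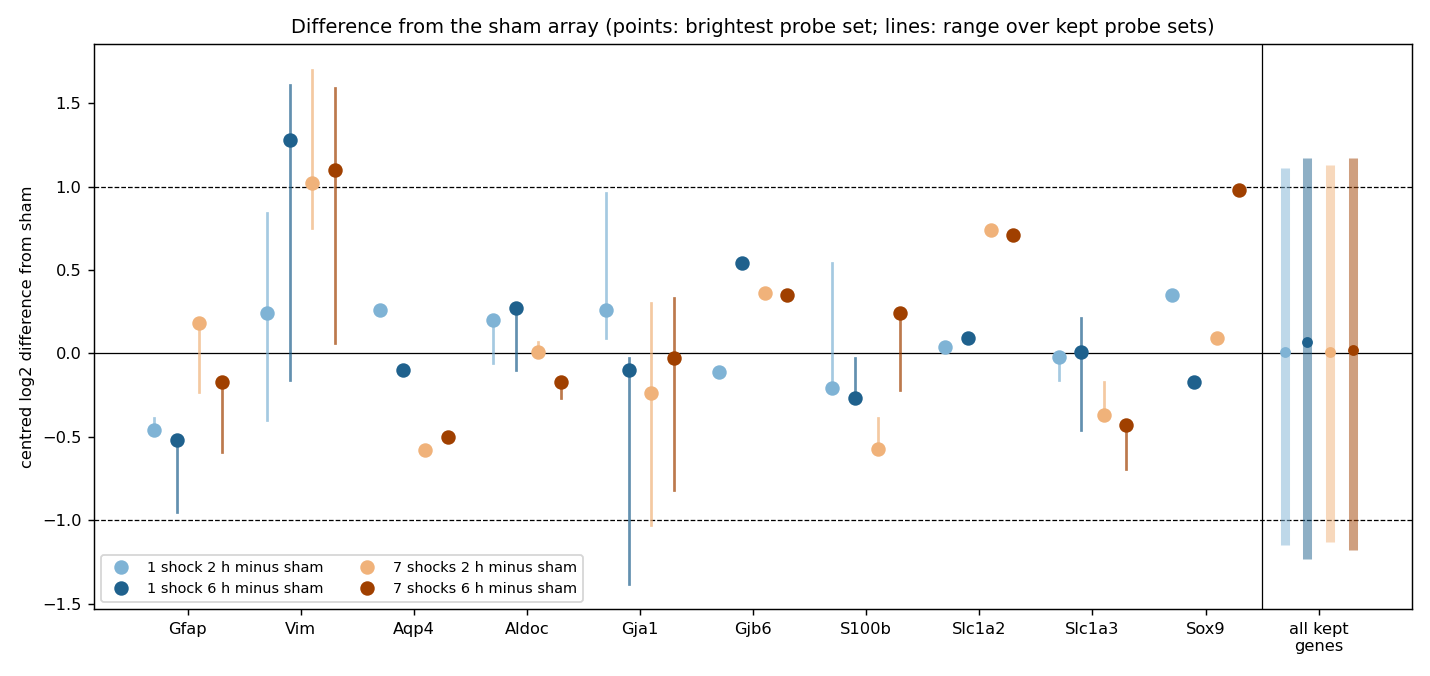
Centred log2 difference of each ECS array from the sham array for the 10 genes. Points are the brightest kept probe set, thin lines the range over all kept probe sets of a gene (no line where there is 1), dashed lines mark 2-fold, and the bars at the right run from the 5th to the 95th percentile of all 6665 kept genes. Of the points, only those of Vim pass 2-fold, at 1.28, 1.02 and 1.10.

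The start site windows of this filament pair and of the glutamate transporter pair described next are shown because the genes of each pair differed from one another across the arrays. They are the 250 bases before and 50 after the annotated start, from RefSeq on build GRCm38.p6, written 5′ to 3′ on the gene's strand. Vim lies at chr2:13574061-13574360 (plus strand), Gfap at chr11:102897151-102897450 (minus strand), Slc1a2 at chr2:102706188-102706487 (plus strand) and Slc1a3 at chr15:8710758-8711057 (minus strand). Capitals mark matches to 5 motifs searched on both strands.
Vim: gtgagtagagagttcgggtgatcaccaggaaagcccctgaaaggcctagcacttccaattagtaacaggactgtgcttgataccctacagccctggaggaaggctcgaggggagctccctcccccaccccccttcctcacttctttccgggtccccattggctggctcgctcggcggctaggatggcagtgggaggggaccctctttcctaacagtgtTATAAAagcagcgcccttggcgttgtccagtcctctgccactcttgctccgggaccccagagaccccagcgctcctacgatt
Gfap: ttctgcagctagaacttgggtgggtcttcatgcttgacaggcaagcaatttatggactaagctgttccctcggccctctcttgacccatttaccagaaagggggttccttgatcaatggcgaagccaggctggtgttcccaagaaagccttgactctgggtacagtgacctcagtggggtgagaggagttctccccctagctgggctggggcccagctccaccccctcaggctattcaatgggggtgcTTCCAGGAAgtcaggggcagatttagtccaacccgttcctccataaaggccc
Slc1a2: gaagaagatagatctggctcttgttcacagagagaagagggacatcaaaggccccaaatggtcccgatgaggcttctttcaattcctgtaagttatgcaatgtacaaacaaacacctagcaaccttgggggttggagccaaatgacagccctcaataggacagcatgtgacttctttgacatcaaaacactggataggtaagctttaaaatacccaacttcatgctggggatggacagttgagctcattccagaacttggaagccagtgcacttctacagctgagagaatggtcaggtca
Slc1a3: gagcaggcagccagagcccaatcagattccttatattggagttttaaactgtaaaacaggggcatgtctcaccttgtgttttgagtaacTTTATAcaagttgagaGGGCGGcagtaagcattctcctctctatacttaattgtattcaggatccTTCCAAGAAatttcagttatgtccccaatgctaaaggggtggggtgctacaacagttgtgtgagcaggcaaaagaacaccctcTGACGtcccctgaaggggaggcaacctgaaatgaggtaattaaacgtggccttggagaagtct
The AP-1 motif, searched as TGANTCA, was found in 7.81% of 32851 RefSeq promoter windows of the same length, and the STAT motif, searched as TTCNNNGAA, in 8.30%. The GC box, searched as GGGCGG, was found in 35.7% of those windows. TATA was searched by the letters TATAAA and was found in 13.6% of them. The core of the cyclic AMP response element (CRE), searched as TGACG, was found in 20.8% of the windows. The Vim window holds TATAAA from base -32, counted from the start site. The Gfap window holds TTCCAGGAA, a STAT match, from base -2. The Slc1a3 window holds a STAT match (TTCCAAGAA from -96), a GC box (from -145), a TATA match on the minus strand (from -161) and a CRE core (from -13), and the Slc1a2 window holds none of the 5. No matches overlapped in these windows. Of the 8 genes with a window in the RefSeq table, the others being Aqp4 and Sox9, 1 held an AP-1 match (Gja1) and 3 a STAT match (Aldoc, Gfap and Slc1a3). Aldoc had more than 1 window, and its STAT matches lay in only 1 of them. These counts are by gene, while the shares above are by window. A match is a run of letters and not a measured binding site.

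Slc1a2 and Slc1a3 encode GLT-1 and GLAST, the main glutamate transporters of astrocytes. Slc1a2 (1451627_a_at, its only probe set) read 300.9 in deposited signal on sham, 282.1 and 420.8 at 2 h and 6 h after 1 shock, and 718.1 and 692.7 at 2 h and 6 h after 7 shocks. Both 7-shock arrays read higher than the other 3 in deposited signal. Most genes were brighter on them, with 80.9% and 79.8% of all kept genes above sham without rescaling. The share of genes in the same order as Slc1a2 was not counted. The centred differences from sham were 0.04 and 0.09 after 1 shock and 0.74 and 0.71 after 7 shocks, the latter above 88.2% and 86.4% of all genes but short of 2-fold. Directly against the single-shock array of the same time, the 7-shock array was higher by 0.70 at 2 h and 0.63 at 6 h, a pair of comparisons that share no array. These differences stayed above 0 in every processing tried, at 0.67 or more at 2 h and 0.53 or more at 6 h. Without rescaling, Slc1a2 was higher than sham by 1.25 and 1.20 after 7 shocks.

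Slc1a3 showed the other order on the centred scale. Its brightest probe set (1452031_at) read 383.3, 345.7, 508.6, 422.3 and 397.9 in deposited signal, in the order sham, 1 shock at 2 h and 6 h, and 7 shocks at 2 h and 6 h. After centring it differed from sham by -0.02 and 0.01 after 1 shock and by -0.37 and -0.43 after 7 shocks. Its other probe sets (1426340_at and 1426341_at) differed by -0.26 and -0.17 at 2 h and by -0.69 and -0.52 at 6 h after 7 shocks, so all 3 lay below sham on both 7-shock arrays, none past 2-fold. For the brightest probe set this direction rests on the rescaling, since without it that probe set lay above sham by 0.14 and 0.05. In deposited signal, 1426340_at read 353.4 on sham and 418.4 and 307.1 at 2 h and 6 h after 7 shocks. Probe set 1426341_at read 174.0, 219.5 and 169.4 on these arrays. Both were thus above sham at 2 h and below it at 6 h before centring. The difference between the transporters does not rest on the rescaling, because both were read on the same arrays.

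Neuron markers were also higher than sham on the 7-shock arrays, 9 and 8 of 10 at 2 h and 6 h against 5 and 5 after 1 shock. Of all kept genes, 50.7% and 51.1% were above sham after 7 shocks, and 50.8% and 54.8% after 1 shock. Without rescaling the neuron markers above sham were 4 and 8 after 1 shock and 10 and 10 after 7 shocks. All 10 were kept, with a median difference from sham of 0.06 and -0.03 after 1 shock and of 0.28 and 0.29 after 7 shocks, none past 2-fold. Their summed centred signal was 14247 on sham, 16064 and 15165 after 1 shock, and 15878 and 16799 after 7 shocks. The part of neuronal RNA in the Slc1a2 difference was not tested.

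**Figure D3:**
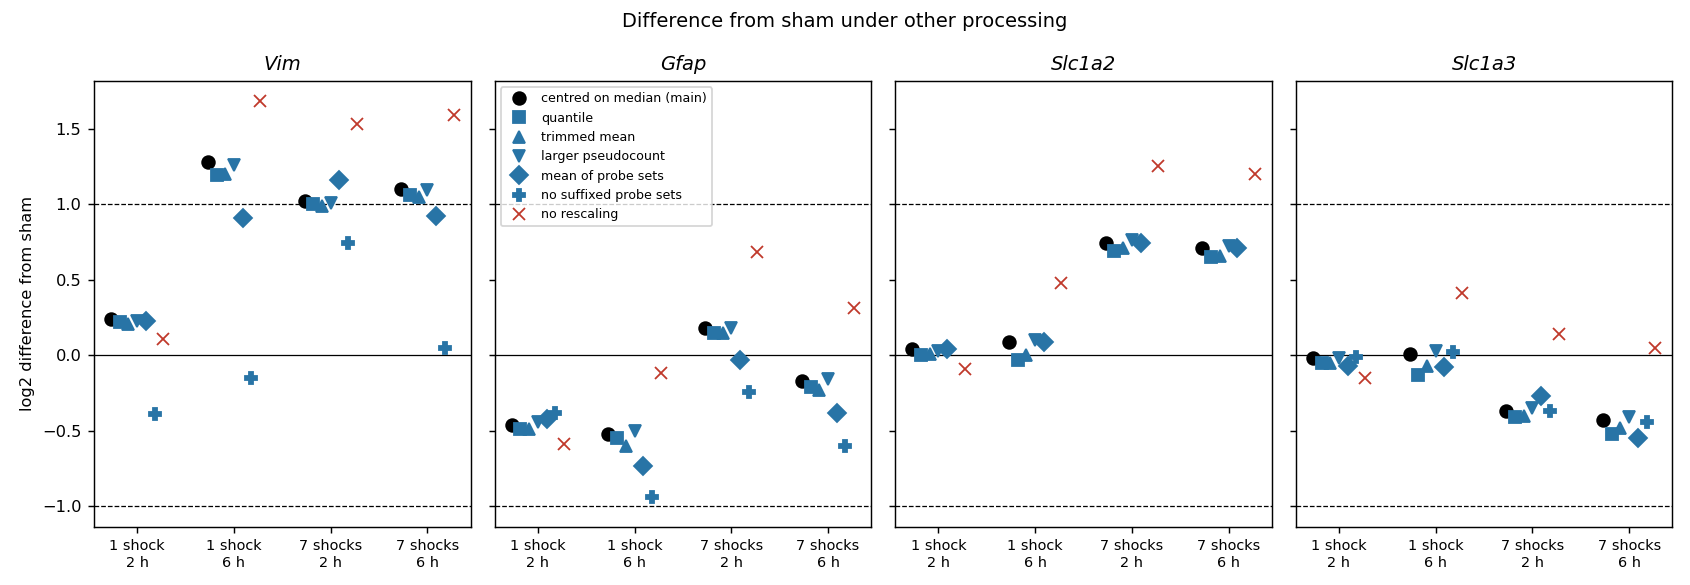
Log2 difference from sham of Vim, Gfap, Slc1a2 and Slc1a3 on each ECS array under the processing used here (black) and under 6 other settings. Dashed lines mark 2-fold. Leaving the arrays unscaled (crosses) raises the 6 h and 7-shock values of all 4 genes, and Vim drops to -0.15 and 0.05 at 6 h when suffixed probe sets are left out. Slc1a2 has no probe set without a suffix.

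Gja1 and Gjb6 encode connexin 43 and connexin 30, the gap junction proteins that couple astrocytes into a network. The brightest Gja1 probe set (1437992_x_at) read 1165.5 in deposited signal on sham, 1273.4 and 1429.7 at 2 h and 6 h after 1 shock, and 1399.2 and 1602.7 at 2 h and 6 h after 7 shocks. After centring, its differences from sham were 0.26, -0.10, -0.24 and -0.03. Of its 6 probe sets, the 4 brightest lay between -0.24 and 0.32 in all 4 comparisons. The fifth by brightness (1438973_x_at) stood apart from them with 0.37, -1.38, -1.03 and -0.82, and the dimmest (1415801_at) with 0.96, -0.40, 0.30 and 0.33.

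Gjb6 had 1 probe set (1448397_at), which read 90.5 on sham, 76.4 and 173.9 after 1 shock, and 165.8 and 162.5 after 7 shocks. Its differences from sham were -0.11 at 2 h after 1 shock and 0.54, 0.36 and 0.35 on the other ECS arrays. Like the brightest Vim probe set, Gjb6 was low on sham and on the single-shock 2 h array and higher on the other 3, though not past 2-fold. After 1 shock it was higher at 6 h than at 2 h by 0.65, and after 7 shocks the 6 h and 2 h arrays differed by -0.01.

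Aqp4 encodes aquaporin 4, the water channel of astrocyte endfeet. Its kept probe set (1434449_at) read 198.7 in deposited signal on sham, 216.9 and 244.2 after 1 shock, and 188.5 and 197.1 after 7 shocks. Deposited signals thus differed little, while most genes were brighter on the 7-shock arrays. The centred differences from sham were 0.26 and -0.10 after 1 shock and -0.58 and -0.50 after 7 shocks. Without rescaling the last 2 were -0.08 and -0.01. Against the single-shock array of the same time, Aqp4 on the 7-shock array was at -0.84 at 2 h, a value above 9.72% of all genes, and at -0.40 at 6 h. Both stayed below 0 in every processing tried, but without rescaling the 2 h value was only -0.20 and the 6 h value -0.31. The probe set of Aqp4 too dim to be kept (1425382_a_at) read 16.4, 11.8, 16.0, 35.8 and 15.4, so its reading at 2 h was higher after 7 shocks than after 1, the other way round from the kept one.

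Aldoc, the glycolytic enzyme aldolase C, and S100b, a calcium-binding protein that astrocytes also secrete, are general astrocyte markers. Aldoc (1451461_a_at) read 1115.1 on sham, 1165.1 and 1773.4 after 1 shock, and 1591.0 and 1389.9 after 7 shocks, with centred differences of 0.20, 0.27, 0.01 and -0.17. Its other probe set (1424714_at) gave -0.06, -0.10, 0.07 and -0.27. S100b (1434342_at) read 317.8 on sham, 250.2 and 346.7 after 1 shock, and 304.1 and 527.2 after 7 shocks, with differences of -0.21, -0.27, -0.57 and 0.24. Its other probe set (1419383_at) gave 0.54, -0.03, -0.39 and -0.22. Its highest centred reading was at 6 h after 7 shocks on the brightest probe set and at 2 h after 1 shock on the other, so the probe sets of S100b gave different orders.

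Sox9 encodes the transcription factor that starts gliogenesis and marks astrocyte nuclei in the adult brain. Its kept probe set (1451538_at) read 42.2 in deposited signal on sham, 49.1 and 49.4 after 1 shock, and 64.3 and 118.9 at 2 h and 6 h after 7 shocks. The array of 6 h after 7 shocks was the high one, and the other 4 were close together. Its difference from sham was 0.98 there, just short of 2-fold, against 0.35, -0.17 and 0.09 on the other ECS arrays in their usual order. The second probe set (1424950_at), which was too dim to be kept, read 19.7, 6.5, 10.8, 8.5 and 14.2, and no order is read from it. Sox9 thus rests on 1 probe set.

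Among the 4 comparisons that leave out sham, 7 shocks against 1 shock at 2 h had 0 of the 10 genes past 2-fold against 14.8% of all kept genes, with a median of -0.22. At 6 h the count was 1 of 10 against 17.6%, with a median of -0.05, and the gene was Sox9, higher by 1.16. For 6 h against 2 h, the count was 1 of 10 against 16.1% after 1 shock, with a median of -0.02 and Vim as the gene (1.04), and 0 of 10 against 13.7% after 7 shocks, with a median of 0.04. Without rescaling, 4 of the 10 genes were past 2-fold between 7 shocks and 1 shock at 2 h, against 29.2% of all genes, whose median was then 0.64.

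The members with the most similar profiles over the 5 arrays were Aldoc and Slc1a3, with a root mean square distance of 0.12 log2 units, followed by Aqp4 and Slc1a3 at 0.16. The least similar were Vim and Aqp4, at 0.76. For Gfap, the closest of all 6664 other genes were Oat (ornithine aminotransferase) at 0.04, Zkscan14 at 0.05, Gad2 (a GABA-synthesising enzyme of neurons) at 0.06, and Pcp4l1 and Ankrd10 at 0.07. The median distance of all genes to Gfap was 0.45. Its closest fellow astrocyte gene was Slc1a2, at 0.29, with 973 genes nearer, and Vim lay at 0.60. With 5 arrays many genes lie this close, and the distances are a description.

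A wider list of 22 other astrocyte genes had 19 with a probe set, all kept. Their median difference from sham was 0.08 and 0.10 after 1 shock and -0.13 and -0.18 after 7 shocks. Past 2-fold were 1, 3, 2 and 3 of the 19 genes in the 4 comparisons, all lower than sham, against 13.1%, 15.0%, 14.0% and 14.6% of all kept genes in either direction. Without rescaling the genes past 2-fold were 0, 3, 3 and 2 higher and 2, 1, 0 and 0 lower, against 13.8%, 21.4%, 22.8% and 23.4% of all genes, and the medians were -0.05, 0.49, 0.37 and 0.30. The thyroid hormone transporter gene Slco1c1, which endothelium expresses too, read 109.9 on sham, 44.4 and 51.2 after 1 shock, and 104.5 and 66.0 after 7 shocks, with differences of -1.15, -1.48, -0.58 and -1.21. Fabp7, a fatty acid binding protein of radial glia and astrocytes, read 504.4 on sham, 453.1 and 538.5 after 1 shock, and 355.6 and 288.3 after 7 shocks. Both 7-shock arrays were thus lower than the other 3 even before centring, and the share of all genes in that order was not counted. The Fabp7 differences after 7 shocks were -1.01 and -1.29. The folate enzyme gene Aldh1l1 stood at -1.28 and the bicarbonate transporter gene Slc4a4 at -1.04 at 6 h after 1 shock, the latter with another probe set at 0.43. Mt3, a metallothionein, was at -1.42 at 2 h after 7 shocks, and the receptor gene Gpr37l1 at -1.07 at 6 h after 7 shocks. Fgfr3, a growth factor receptor and the gene of this list furthest above sham, which was picked out after its values were seen, read 72.6 on sham and 132.2 to 181.8 on the ECS arrays, with differences of 0.99, 0.86, 0.80 and 0.71.

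The endfoot and potassium buffering list had 6 of 9 genes kept and none past 2-fold, with medians of 0.22, 0.03, -0.17 and -0.34 (0.08, 0.42, 0.33 and 0.14 without rescaling). Its furthest genes were the utrophin gene Utrn (1.00 at 2 h after 1 shock, just short of the limit, with another probe set at -0.16), the potassium channel gene Kcnj10 (0.93 in that comparison) and the dystroglycan gene Dag1 (-0.89 at 2 h after 7 shocks, with its 3 probe sets on both sides of 0). The glutamate and glutamine list had 3 of 9 genes kept and none past 2-fold, with medians of -0.04, 0.15, -0.13 and -0.02 (-0.18, 0.54, 0.37 and 0.47 without rescaling). Glul, the glutamine synthetase that turns captured glutamate into glutamine, differed by 0.12, 0.15, -0.13 and -0.02, the glutamate dehydrogenase gene Glud1 by -0.27 to -0.04, and the transporter gene Slc1a1 by 0.96 at 6 h after 1 shock. Of 12 factors of astrocyte fate, 8 were kept, with medians of 0.04, -0.33, 0.07 and 0.19 (-0.09, 0.07, 0.58 and 0.67 without rescaling). Past 2-fold were 1 gene higher in each comparison with sham, and 1 lower at 2 h after 1 shock and at 6 h after 7 shocks. Of all kept genes, 13.1%, 15.0%, 14.0% and 14.6% were past 2-fold in either direction. The nuclear factor I gene Nfia was at 0.52, 1.14, 1.12 and 1.06, with its other probe sets as low as -0.64. Its relative Nfib was at 1.21 at 2 h after 1 shock, on 1 dim probe set that read 29.2 to 63.1 over the arrays. The zinc finger gene Zbtb20, also on 1 probe set, was at -1.46 in that comparison and -2.83 at 6 h after 7 shocks.

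Of 20 genes of reactive astrocytes, 18 had a probe set and 1 was bright enough to be kept. This was Stat3, the transcription factor that drives Gfap in reactive astrocytes and is also active in neurons. It read 28.9 on sham, 67.0 and 61.1 after 1 shock, and 63.7 and 121.4 after 7 shocks, and was higher than sham by 1.31, 0.65, 0.60 and 1.54, with its other probe set at 2.11, 0.68, 0.65 and 1.05. Lcn2, a secreted protein that marks reactive astrocytes, read 0.2 to 1.6 on the 5 arrays.

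**Figure D4:**
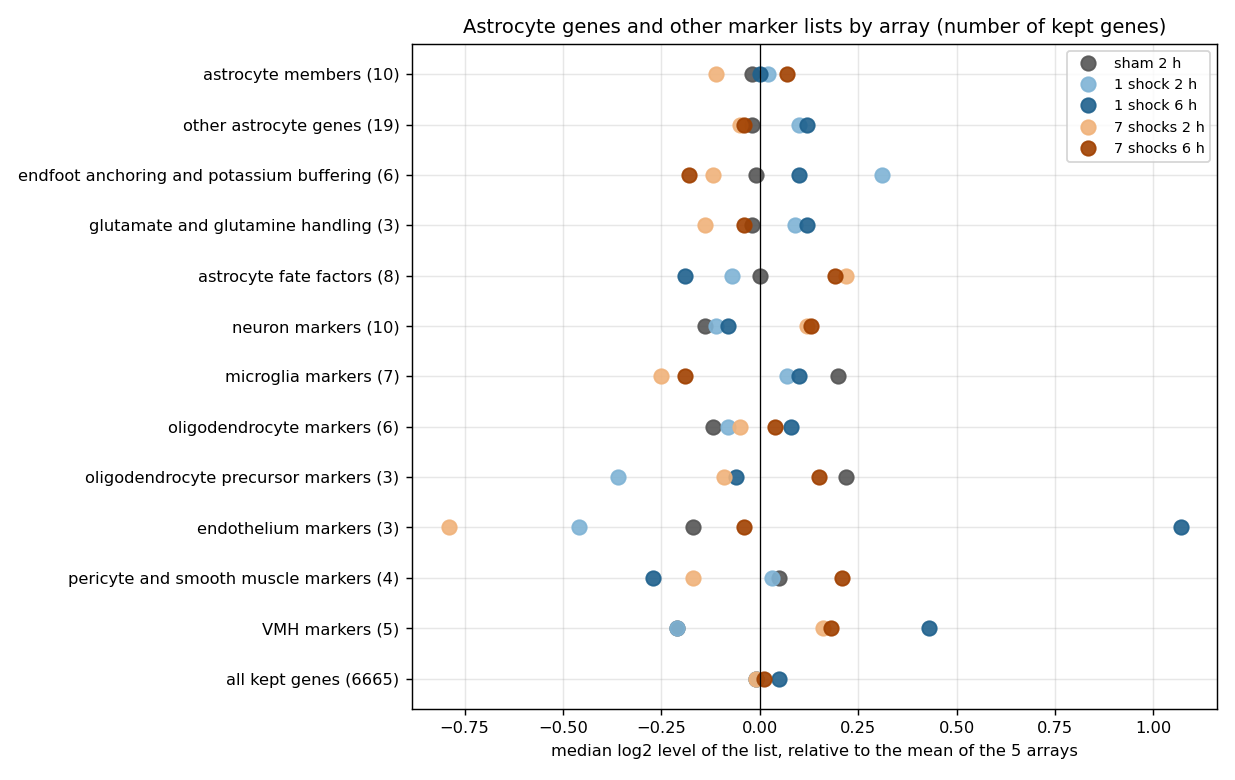
Median log2 level of the 10 astrocyte genes ("astrocyte members"), the related astrocyte lists and the marker lists of other cells on each array, relative to the mean of the 5 arrays, with the number of kept genes in parentheses. Lists with under 3 kept genes are left out. The 10 astrocyte genes lie between -0.11 and 0.07, while endothelium, with 3 genes, runs from -0.79 to 1.07. Of these 3, Tek was kept only through the single-shock 6 h array, where the highest value lies.

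Among the other cell types, the median difference from sham was -0.10, -0.45, -0.46 and -0.64 for 7 of 10 microglia markers, 0.04, 0.15, 0.14 and 0.25 for 6 of 8 oligodendrocyte markers, and -0.27, -0.41, -0.44 and -0.18 for 3 of 5 precursor markers. It was -0.63, 1.25, -0.45 and 0.06 for 3 of 8 endothelial markers, 0.21, -0.03, -0.26 and 0.16 for 4 of 7 pericyte and smooth muscle markers, and -0.18, 0.74, 0.37 and 0.46 for 5 of 7 VMH markers. The endothelial list includes Tek, which was kept only through its high reading on the single-shock 6 h array. Several directions rest on the centring. Without rescaling the medians were -0.23, -0.05, 0.05 and -0.15 for microglia, -0.10, 0.54, 0.65 and 0.74 for oligodendrocytes, and -0.40, -0.02, 0.07 and 0.31 for precursors. They were then -0.77, 1.64, 0.06 and 0.55 for endothelium, 0.08, 0.36, 0.24 and 0.64 for pericytes and smooth muscle, and -0.31, 1.13, 0.88 and 0.94 for the VMH. The VMH markers had a median that was low on sham and the single-shock 2 h array and high on the other 3, as the brightest Vim probe set and Gjb6 were. Relative to the mean of the 5 arrays, it was -0.21 and -0.21 against 0.43, 0.16 and 0.18. The oligodendrocyte markers split the arrays in the same way with smaller gaps, at -0.12 and -0.08 against 0.08, -0.05 and 0.04. Of the 5 kept VMH markers, 1, 5, 5 and 4 were above sham, against 50.8%, 54.8%, 50.7% and 51.1% of all kept genes. The part of how much VMH each dissection held was not tested.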

How the data were processed

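Signals of 5 Affymetrix arrays, 1 per group, were read from the deposited value table. The authors deposited 1 linear intensity per probe set, made with MAS5 per the submitters' processing notes. Its version and target intensity are not given there, and detection calls were not used here. Of 22690 probe sets, 64 controls, 691 with several gene symbols and 1555 with none in the platform annotation were left out, leaving 20380, of which 20351 matched RefSeq by gene ID with 0 symbols changed.

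Before taking log2, 1.2 was added to every signal, a pseudocount equal to the 10th percentile over the table. Probe sets with a mean signal above 28.4 (top 50%) were kept, 10401 in all, and each array was centred on their median. Each gene was represented by the brightest of its kept probe sets. Centred signals are these values turned back to a linear scale. The 10 genes and the 13 other gene lists were chosen with earlier results of these data known. All 10 genes were named with all their probe sets. Of the astrocyte-related lists, genes past 2-fold against sham or the 3 furthest from 0 were named, and the other lists are given by medians and, for endothelium, ependyma, pericytes and neurons, summed signals. Single markers of other cells are named as checks beside results. They are Nr5a1, Rax, Foxj1, the kept ependymal, tanycyte, pericyte and smooth muscle genes, and 6 endothelial genes. Genes nearest to Gfap are the 5 with the smallest root mean square distance. There were 9 alternatives for scaling, pseudocount, filter and probe set choice. The steps were tested on simulated data. Python 3.11.15, numpy 2.4.6, pandas 2.3.3 and matplotlib 3.10.9 were used.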

Additional observations from a re-analysis of the deposited data

Results flagged for a closer look

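For Sox9, the difference between 7 shocks and 1 shock had opposite signs at the 2 times. It was -0.26 at 2 h and 1.16 at 6 h on the kept probe set. Its other probe set was too dim to be kept. Without rescaling both were above 0 on the kept probe set, at 0.38 and 1.25. The difference between the 2 times was not tested, since each rests on 1 array per group. On the centred scale, signs were opposite between these comparisons for 5 of the 10 genes and for 47.3% of all kept genes.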

How the results depend on the processing

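Medians that kept their sign and moved by no more than the standard error over the 10 genes (0.08 to 0.18), and counts within 1.5 times, are not listed. That standard error is a spread among genes, not replicate error, and it exceeds most of the medians. Of 144 medians and counts under other settings, 101 met this limit and 43 did not, and 17 of 72 medians took the other sign, at least 1 for each of the 8 comparisons. Without rescaling, the median against sham was -0.01, 0.35, 0.55 and 0.59, those of 7 shocks against 1 at 2 h and 6 h were 0.42 and 0.04, and that of 6 h against 2 h after 1 shock was 0.51. Counts past 2-fold were then 2 and 3 at 2 h and 6 h after 7 shocks, 4 for 7 shocks against 1 at 2 h and 2 for 6 h against 2 h after 1 shock. With the top 25% of probe sets, which leaves out Sox9, medians were 0.01 at 2 h after 1 shock, -0.06 and -0.09 at 2 h and 6 h after 7 shocks, and -0.01 for 6 h against 2 h after 7 shocks, and counts were 0 at 2 h after 7 shocks, for 7 shocks against 1 at 6 h and for 6 h against 2 h after 1 shock. With no filter, the median at 6 h after 1 shock was 0.15, that of 6 h against 2 h after 1 shock 0.10, and the count at 6 h after 7 shocks 2. With unsuffixed probe sets only, which leaves out Slc1a2, medians were -0.05 at 2 h after 1 shock, -0.02 and 0.20 for 7 shocks against 1 at 2 h and 6 h, and -0.01 for 6 h against 2 h after 7 shocks. Counts were then 0 at 6 h after 1 shock, at both times after 7 shocks and for 6 h against 2 h after 1 shock, and 1 for 7 shocks against 1 at 2 h. Vim at 6 h after 1 shock turned to -0.15. With the mean of a gene's probe sets, medians were -0.02 at 6 h after 7 shocks, 0.08 for 7 shocks against 1 at 6 h and -0.02 for 6 h against 2 h after 7 shocks, and counts were 0 at 6 h after 1 and 7 shocks and for 6 h against 2 h after 1 shock. The median of 7 shocks against 1 at 6 h was 0.02 with quantile normalization. Counts at 2 h after 7 shocks and for 6 h against 2 h after 1 shock were 0 with quantile normalization and with the trimmed mean. The count at 6 h after 7 shocks was 2 with quantile normalization and with a pseudocount of 0. The cause was not tested, beyond the genes left out by construction. No paired analysis was possible because each group has 1 array. No detection calls were used here, so dim signals such as the kept Sox9 probe set carry the most uncertainty.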

Other observations

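Of the 18 reactive astrocyte genes with a probe set, 17 were too dim to be kept. Their deposited signals were above sham for 9 and 10 at 2 h and 6 h after 1 shock and for 13 and 11 after 7 shocks, and below it for 8, 5, 4 and 6, with the arrays not rescaled. On the same unscaled arrays, 40.2%, 76.6%, 80.9% and 79.8% of all kept genes, which are brighter, were above sham. The genes below were chosen with their values in view. Timp1, an inhibitor of matrix proteases, read 0.4 on sham, 27.8 and 30.5 at 2 h and 6 h after 1 shock, and 9.4 and 72.9 at 2 h and 6 h after 7 shocks. Tnc, the matrix protein tenascin C, read 55.0 and 52.7 on the arrays of 6 h after 1 and 7 shocks and 0.4 to 2.2 on the other 3. Cd44, a hyaluronan receptor, read 62.1 at 2 h after 7 shocks and 0.8 to 4.8 elsewhere. Serpina3n, a protease inhibitor, read 18.1 on sham, 14.8 and 27.5 after 1 shock, and 43.5 and 25.0 after 7 shocks, while Lcn2 and Cxcl10 read 5.7 or less on all 5 arrays. Other genes were lower than sham on most arrays. Cp, the copper carrier ceruloplasmin, read 39.4 on sham and 38.3 at 2 h after 1 shock, and 21.3 or less on the other 3 arrays. Nes, the filament protein nestin, read 10.3 on sham, 1.2 and 0.5 after 1 shock, and 14.6 and 3.2 after 7 shocks, and the heat shock gene Hspb1 read 27.3, 12.5, 16.8, 40.0 and 22.3 in the same order. Each of these signals is that of the gene's brightest probe set on 1 array per group. No fold is given for them, because their mean signals lie below the limit for keeping a probe set.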
